A study of Danio rerio with 17 samples.

Results

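The proteasome subunit genes were followed in whole zebrafish embryos after excess glucose or excess lipid. Members were all rows of the count files named psm followed by a letter from a to g and a number. That rule found 54 of 15316 genes, of which 22 belong to the core particle (psma, psmb). A further 31 (psmc, psmd, psme, psmf, psmg) are grouped here as the regulatory part. Among them, 6 are assembly chaperones and 5 are activators and the inhibitor, which are not subunits of the cap. The last 1, psmc3ip, is not a subunit but a factor of meiotic recombination in mammals that shares the name stem. A filter on low counts left 48 members for testing among 13539 genes. Of the 6 that were not tested, psmd7 was listed at 0 in all 17 libraries, and psmb8a, psmb10, psmb11a, psmb11b and psmb12 had a few reads at most. The annotation used for counting is not given, so the 0 of psmd7 is not read as absence of its RNA. The embryos were of the AB line and were frozen at 72 hours post fertilization (hpf) in pools of 10. Glucose pools (n = 6) were kept in 3% glucose from 24 hpf. FFA pools (n = 6) had a fluorescent BODIPY-labelled lipid, in canola oil at 1 mg/ml, put into the yolk sac at 24 hpf. Control pools (n = 5) carry no treatment in their titles, and the labels do not say whether they were mock-injected.

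The proteasome is the barrel-shaped protease that degrades proteins tagged with ubiquitin. Its core is a stack of rings: the outer rings are made of alpha subunits, which gate the entrance, and the inner rings of beta subunits, some of which carry the proteolytic sites. A cap of ATPases and non-ATPase subunits binds the ubiquitin chain, removes it, unfolds the protein and feeds it into the core. Since each complex needs its subunits in fixed proportions, their genes are known in yeast and mammals to be switched on together, in mammals by the transcription factor Nrf1 (nfe2l1) when proteasome activity falls short.

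Counts assigned to genes ranged from 10208640 to 16745675 per library. The share of all counts in the files' line for no feature, called the no-feature share here, ranged from 29.9 to 36.6%. These counts were assigned to no gene, and where in the genome their reads lie is not given. It averaged 33.5 ± 2.70% over the 5 control, 32.1 ± 2.31% over the 6 glucose and 33.4 ± 1.88% over the 6 FFA pools (mean ± SD, as throughout for levels). Libraries were grouped by title. In 11 of 17 the treatment tag gives a different group, and with groups taken from the tags the directions of all 11 members called in FFA against glucose turn round. All 10 marker genes of muscle, neuron, blood, skin, lens, heart, pancreas, liver and retina that were checked had counts in every library. In such whole-embryo RNA, fewer cells of a type and less RNA per cell cannot be told apart. Levels are CPM (counts divided by the TMM-scaled library size). They are not per gene length, so they are compared between groups and not between genes.

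Proteasome genes differed little between groups. No member was as much as 2-fold higher in either treatment than in control, and most called differences were between 1.1-fold and 1.3-fold. In glucose against control, 5 of 48 tested members were called higher (psmd11b, psmd12, psmd4b, psmd9 and psme3) and 1 lower (psma6l) by edgeR's quasi-likelihood test at an adjusted p under 0.05. Of all genes tested 5.87% were called higher and 5.02% lower, beside 10.4% and 2.08% of the members. Without control replicate 1, 1 member (2.08%) was called higher against 3.69% of all genes, without glucose replicate 5 it was 1 against 4.16%, and without control replicates 1 and 2 and glucose replicate 4 together 0 against 3.43%, so the share above the background depends on these libraries. With library size alone as the scaling, 4.82% of all genes were called higher and 6.32% lower, and 4 and 1 members. In FFA against control, no member was called in either direction, where 1.1% of all genes were called higher and 0.716% lower. At an unadjusted p under 0.05, 0 members were higher and 2 lower (psmd3 and psmb5) in that comparison, against 5.69% and 4.49% of all genes, and DESeq2 and limma-voom also called 0. In FFA against glucose, 2 members were called higher (psma6l and psme2) and 9 lower (psmb5, psmc1a, psmd1, psmd2, psmd4b, psmd11b, psmd12, psmd9 and psme3), against 7.98% and 9% of all genes. The 18.8% of members called lower is therefore above the background, and the 4.17% called higher below it.

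Small differences ran the same way in most members. The log2 fold change of glucose against control was above 0 in 43 of 48 members, with a median of 0.08 against -0.0031 over all genes. That of FFA against control was below 0 in 37 of 48, with a median of -0.05 against -0.0088 over all genes. Single libraries moved that median by over 1.5 times: it was -0.02 without control replicate 4 (29 of 48 below 0), -0.03 without control replicate 3 or FFA replicate 4 or 5, and -0.09 without control replicate 1 (43 of 48 below 0). The FFA and glucose comparisons share the 5 controls. That of FFA against glucose was below 0 in 44 of 48, with a median of -0.12 against 0.00096 over all genes. With library size alone as the scaling, 35 of 48 members were above 0 in glucose against control, with a median of 0.04 against -0.04 over all genes. Under that scaling, 40 of 48 were below 0 in FFA against glucose. Where control replicates 1 and 2 and glucose replicate 4, the libraries with the larger no-feature shares in those groups, were left out together, the glucose median was 0.02, with 30 of 48 above 0, and that of FFA against control -0.12, with 43 of 48 below 0. FFA replicates 4 and 5, with no-feature shares of 35.8 and 35.3%, were kept, so this setting trims control and glucose alone. The part of that one-sided choice in the FFA values was not tested. Leaving out control replicate 1 alone gave a glucose median of 0.04. With the no-feature share as a covariate the glucose median was 0.02, with 32 of 48 above 0, and that of FFA against glucose -0.07, with 38 of 48 below 0.

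**Figure D1:**
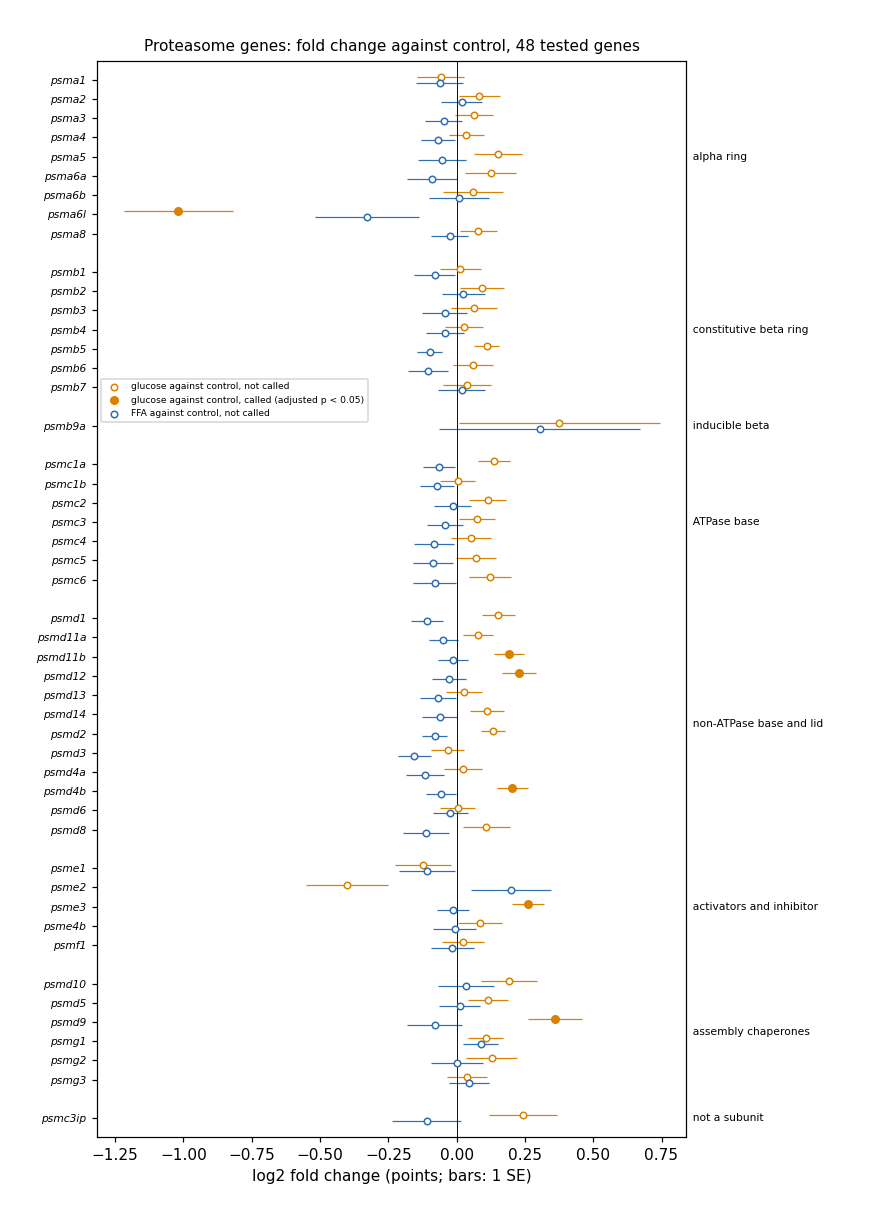
Log2 fold change against control (x axis) of the 48 tested members (y axis, by class), with glucose in orange and FFA in blue; bars are 1 SE and filled points have an adjusted p under 0.05. Most orange points lie right of 0 and most blue points left of it, and psma6l (-1.02 in glucose) stands apart from the other members.

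The genes of the alpha ring kept close levels in the 3 groups, apart from 1 low copy. The 9 alpha genes together summed to 892 ± 101 CPM in control, 930.3 ± 60.4 CPM in glucose and 864 ± 67.5 CPM in FFA. None was called higher in glucose against control, and only psma6l was called in any comparison. This gene, named as a psma6-like copy, had 2.90, 2.12, 3.49, 4.38 and 2.86 CPM in the control pools. Its 6 glucose pools ranged from 1.02 to 1.87 CPM with a median of 1.62, and its FFA pools from 1.83 to 3.16 CPM with a median of 2.60. All glucose pools were thus below all control pools, while the FFA pools overlapped both. It fell in glucose by 1.02 ± 0.20 on the log2 scale (SE, adjusted p = 0.00349), the largest change against control among the tested members. It was 0.69 ± 0.20 log2 units higher in FFA than in glucose (adjusted p = 0.0228), a call that was lost without glucose replicate 6 (adjusted p = 0.0508). Only 10 to 56 reads per library lie behind these values. In RefSeq, psma6b is an older name of psma6l, so which copy each of these rows counts is uncertain. The copies psma6a and psma6b were not called. The log2 fold change of psma6a in glucose against control was 0.12, with a 95% interval from -0.07 to 0.32, and that of psma6b was 0.06, with an interval from -0.18 to 0.30. The smallest unadjusted p among the other alpha genes was that of psma6a in FFA against glucose, where the fold change was -0.22 ± 0.09 on the log2 scale (adjusted p = 0.104).

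The constitutive beta ring, which holds the proteolytic sites, was nearly level between groups as well. Its 7 genes summed to 906 ± 88.2 CPM in control, 943 ± 53.5 CPM in glucose and 878 ± 64.8 CPM in FFA. Only psmb5, which encodes the subunit with the chymotrypsin-like site, was called. Its control pools stood at 155, 165, 171, 171 and 171 CPM. The glucose pools ranged from 170.3 to 188 CPM with a median of 180.1, and the FFA pools from 147 to 168 CPM with a median of 153. No FFA pool reached the lowest glucose pool, and the controls overlapped both groups. Its log2 fold change in FFA against glucose was -0.21 ± 0.04 (SE, adjusted p = 0.00349). The other subunits with active sites were not called: psmb6, with the caspase-like site, was at -0.17 ± 0.07 (adjusted p = 0.116) and psmb7, with the trypsin-like site, at -0.02 ± 0.08 (adjusted p = 0.895) in the same comparison.

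The inducible beta subunits, which in mammals replace the constitutive ones in immune cells and after interferon, were nearly without reads. Gene psmb8a had 0, 2, 2, 1 and 4 reads in the control pools, 0 to 7 in glucose and 1 to 7 in FFA. Gene psmb10 had 0 to 2 reads per library, and psmb11a and psmb11b, whose mammalian counterpart belongs to the thymus form, had 0 or 1. The fish beta gene psmb12 had 2 to 9 reads. In RefSeq, psmb10 and psmb12 are also older names of another beta gene, so which copy these rows count is uncertain. Only psmb9a, with 4 to 17 reads, passed the filter. Its levels were 0.586 ± 0.135 CPM in control, 0.790 ± 0.404 CPM in glucose and 0.720 ± 0.303 CPM in FFA, and the groups overlapped. The log2 fold change of psmb9a was 0.38 ± 0.37 in glucose (adjusted p = 0.557) and 0.30 ± 0.37 in FFA (adjusted p = 0.939), so a change of the inducible subunits was not detectable at this depth. The ratios of psmb8a to psmb5, psmb9a to psmb6 and psmb10 to psmb7 were not tested, since the inducible partner had a mean of 2.71, 9.53 and 1.06 reads, under the minimum of 10.

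The ATPase base, the ring of motors that unfolds the substrate, moved little. Its 7 genes summed to 1100.2 ± 104 CPM in control, 1167 ± 56.5 CPM in glucose and 1053 ± 84.2 CPM in FFA. All 7 had log2 fold changes above 0 in glucose against control (0.0032 to 0.14) and below 0 in FFA against control (-0.09 to -0.01), with none called. Gene psmc1a was called lower in FFA against glucose, at -0.20 ± 0.06 (SE, adjusted p = 0.0196), with means of 150.8 ± 8.11 CPM in glucose and 131 ± 8.33 CPM in FFA. That call ended without FFA replicate 4 (adjusted p = 0.0512). The next, psmc6, was at -0.20 ± 0.07 and was not called (adjusted p = 0.0719).

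The non-ATPase part of the cap, with the scaffold, ubiquitin receptors and lid, held 5 of the 11 members called in any comparison. Of its 12 tested genes 3 (25%) were called higher in glucose against control and 5 (41.7%) lower in FFA against glucose. Of all genes 5.87% and 9% were, and 0 of the 12 were called the other way. Their sum was 1682 ± 86.5 CPM in control, 1811 ± 41.2 CPM in glucose and 1594 ± 82.2 CPM in FFA. The 6 glucose pools ranged from 1753 to 1844 CPM and the controls from 1536 to 1740 CPM, so the sums did not overlap under TMM scaling, by a narrow margin. The TMM factor was 1.02 for the highest control pool, replicate 6, and 0.966 for glucose replicate 3, so the separation depends on that scaling. The FFA pools ranged from 1502 to 1720 CPM, all below the glucose pools and overlapping the controls.

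Gene psmd4b encodes a copy of the ubiquitin receptor of the cap. It had 87.5, 87.5, 94.6, 95.6 and 94.1 CPM in the control pools. The glucose pools ranged from 94.8 to 114 CPM with a median of 106, and the FFA pools from 80.1 to 94.7 CPM with a median of 89.9. All glucose pools but the lowest were above every control pool, and all were above every FFA pool. Its log2 fold change was 0.20 ± 0.06 in glucose against control (adjusted p = 0.0248) and -0.26 ± 0.05 in FFA against glucose (adjusted p = 0.00268).

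Genes psmd12 and psmd11b encode scaffold subunits of the lid. The control pools had 136, 145, 155, 156 and 147 CPM of psmd12. Its glucose pools ranged from 157 to 185 CPM (median 176) and its FFA pools from 132 to 165 CPM (median 143). Glucose and control pools did not overlap, while 1 FFA pool reached into the glucose range. The log2 fold change of psmd12 was 0.23 ± 0.06 in glucose against control (adjusted p = 0.0237) and -0.26 ± 0.06 in FFA against glucose (adjusted p = 0.00626). The control pools had 77.8, 85.1, 84.1, 82.1 and 84.7 CPM of psmd11b. Its glucose pools ranged from 92.2 to 96.1 CPM (median 95.02), all above the controls, and its FFA pools from 75.4 to 94.4 CPM (median 79.1). Here too, the highest FFA pool, replicate 6, stood within the glucose range, while 4 of the others lay within or below the control range and replicate 1, at 88.2 CPM, between the groups. The log2 fold change of psmd11b was 0.19 ± 0.06 in glucose against control (adjusted p = 0.0329) and -0.21 ± 0.05 in FFA against glucose (adjusted p = 0.0128).

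Genes psmd1 and psmd2 encode the large scaffold subunits of the base. The control pools had 254, 285, 257, 247 and 304 CPM of psmd1. Its glucose pools ranged from 283 to 316 CPM (median 299) and its FFA pools from 230 to 276 CPM (median 247), without overlap between the treatments. The controls spread over both ranges. The control pools had 222, 237, 225, 221 and 253 CPM of psmd2. Its glucose pools ranged from 243 to 271 CPM (median 253) and its FFA pools from 213 to 227 CPM (median 217), again without overlap. The difference of FFA from glucose was -0.26 ± 0.06 log2 units for psmd1 (adjusted p = 0.00444) and -0.21 ± 0.04 for psmd2 (adjusted p = 0.00286). Against control, the glucose value of psmd2 was 0.13 ± 0.05 (adjusted p = 0.07) and that of psmd1 0.15 ± 0.06 (adjusted p = 0.113), neither past the threshold.

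Among the activators, which dock on the core in place of the cap, and the inhibitor, psme3 rose in glucose and psme2 differed between the treatments. Gene psme3 encodes the nuclear activator. Its control pools had 62.5, 64.1, 74.8, 72.3 and 70.0 CPM. All 6 glucose pools (79.5 to 85.4 CPM, median 82.2) were above every control and every FFA pool (63.3 to 77.6 CPM, median 66.7). Gene psme3 rose in glucose by 0.26 ± 0.06 on the log2 scale (adjusted p = 0.00849) and stood at -0.27 ± 0.06 in FFA against glucose (adjusted p = 0.00284). It was the only one of the 5 glucose calls that held with each library left out in turn. Without control replicates 1 and 2 and glucose replicate 4 together, that call of psme3 ended too (0.175, adjusted p = 0.0965).

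Genes psme1 and psme2 encode the partners of the cytosolic activator, known in mammals for its induction by interferon. The control pools had 7.68, 6.69, 10.9, 11.2 and 8.10 CPM of psme2. Its glucose pools ranged from 5.83 to 8.63 CPM (median 6.43) and its FFA pools from 7.87 to 11.8 CPM (median 10.5). All but 1 of the FFA pools were above every glucose pool, and the controls overlapped both. Gene psme2 was 0.60 ± 0.14 log2 units higher in FFA than in glucose (adjusted p = 0.00808), and its value against control was -0.40 ± 0.15 in glucose (adjusted p = 0.0979) and 0.20 ± 0.15 in FFA (adjusted p = 0.826). Its partner psme1 did not pass in any comparison, with 0.01 ± 0.10 in FFA against glucose (adjusted p = 0.941). The gene of the single-chain activator, psme4b, was at 0.09 ± 0.08 in glucose and -0.01 ± 0.08 in FFA against control, and the inhibitor psmf1 at 0.02 ± 0.08 and -0.02 ± 0.08, none of them called.

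The assembly chaperones put the rings together and leave the finished complex. Of 6 tested, psmd9, a chaperone of the ATPase base, was called. Its control pools had 16.6, 19.5, 18.2, 21.4 and 17.4 CPM, its glucose pools 21.2 to 25.7 CPM (median 24.6) and its FFA pools 13.9 to 21.2 CPM (median 17.7). The lowest glucose pool was within the control range and the others were above it. Its log2 fold change was 0.36 ± 0.10 in glucose against control (adjusted p = 0.0266) and -0.44 ± 0.09 in FFA against glucose (adjusted p = 0.0041). The next by p, the base chaperone psmd10, was at 0.19 ± 0.10 in glucose (adjusted p = 0.259). The core chaperones psmg1, psmg2 and psmg3 were between 0.04 and 0.13 in glucose and between 0.0021 and 0.09 in FFA against control, and none was called. The gene psmc3ip was at -0.35 ± 0.12 in FFA against glucose (adjusted p = 0.0536).

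**Figure D2:**
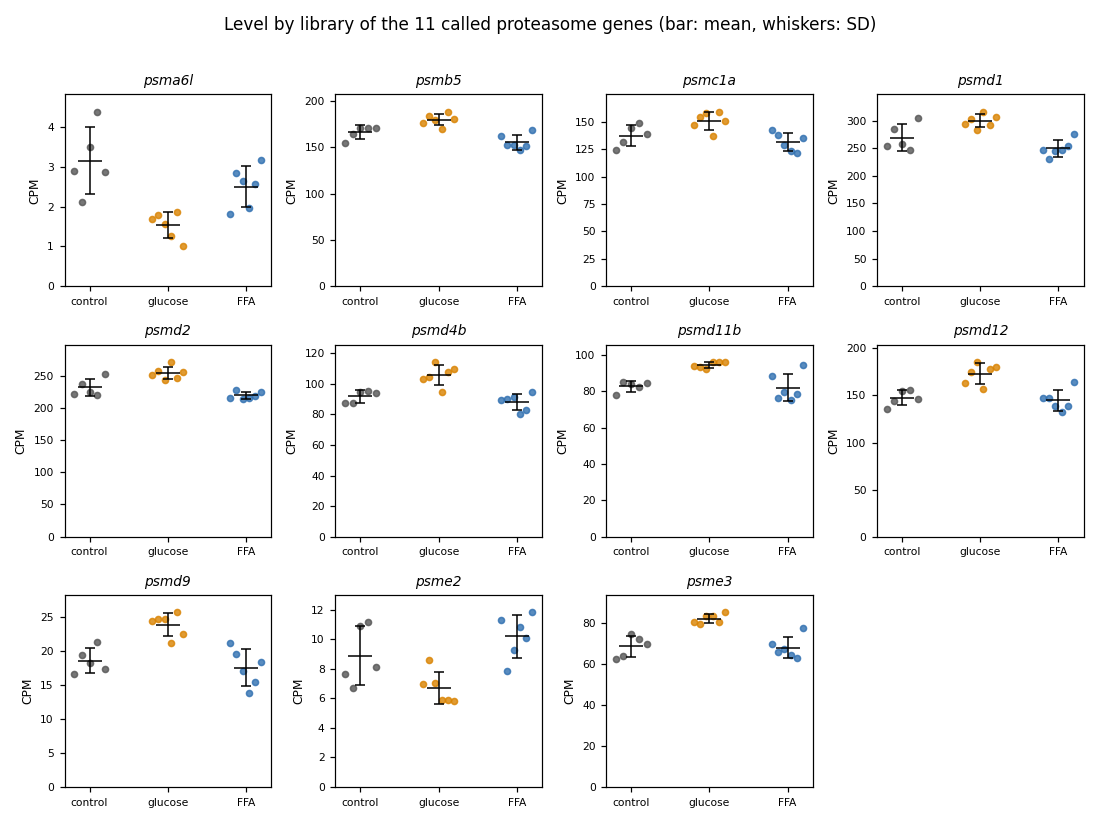
Level in CPM (y axis, from 0) of the 11 members called in any comparison, 1 point per pool of 10 embryos, by group (x axis); bars are means and whiskers SD. Glucose pools of psmd11b (92.2 to 96.1 CPM) and psme3 (79.5 to 85.4 CPM) lie above all controls, and those of psma6l (1.02 to 1.87 CPM) below them.

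Of the 6 calls of glucose against control, those of psme3 and psma6l held with each library left out in turn, and the other 4 lay near the threshold. Those of psmd4b and psmd12 were each lost without control replicate 1 or 2 or glucose replicate 3, 5 or 6 (adjusted p = 0.0507 to 0.0653), and that of psmd9 without control replicate 1, 3 or 6 or glucose replicate 2, 3 or 5 (adjusted p = 0.0503 to 0.0717). That of psmd11b was lost without control replicate 1, 3, 4 or 6 or glucose replicate 1, 2, 5 or 6 (adjusted p = 0.0504 to 0.0868). With 1 library left out, the fold changes of these genes in glucose kept their sign, from 0.17 to 0.42. Without control replicates 1 and 2 and glucose replicate 4 together, 0 members were called higher and 2 lower, against 3.43% and 5.32% of all genes. With the no-feature share as a covariate, 7 were called higher (the 5 above, psmd1 and psmd2) and 2 lower (psma6l and psme2), against 9.21% and 9.42% of all genes.

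More members were called lower in FFA against glucose with both of these settings. Without the same 3 libraries 17 members were called lower, and with the covariate 15, against 14% and 14.8% of all genes under those settings. The former setting kept FFA replicates 4 and 5, whose no-feature shares were also high (35.8 and 35.3%). With the covariate, the alpha genes psma5 and psma6a, the ATPase psmc6, the lid genes psmd8 and psmd14 and psmc3ip joined the 9 called lower. In FFA against control, the covariate gave 1 member called lower, psmd4a, at -0.12 ± 0.03 (adjusted p = 0.0362). The fit without the covariate called 0.716% of all genes lower. The share with the covariate is not given here, so this call is not read as a result about the members.

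The regulatory part held more of the calls than the core, with the chaperone gene psmd9 and the activator genes psme2 and psme3 counted in it. In glucose against control, 5 of 30 tested regulatory genes were called higher (16.7%) and 0 lower, and 0 of 17 core genes higher and 1 lower (5.88%). Of all genes 5.87% were called higher and 5.02% lower. In FFA against glucose, 8 regulatory genes were called lower (26.7%) and 1 higher (3.33%), and 1 core gene was called in each direction (5.88%). Of all genes 9% were called lower and 7.98% higher. The core shares were thus near the background or below it. The median log2 fold change in FFA against glucose was -0.13 in regulatory and -0.09 in core genes. Summed over the 31 regulatory genes, levels were 3131 ± 191 CPM in control, 3358 ± 92.8 CPM in glucose and 2996 ± 180.1 CPM in FFA. Over the 22 core genes the sums were 1799.7 ± 189 CPM, 1875 ± 113 CPM and 1744 ± 132 CPM. The difference between the parts was not tested. Of the 5 regulatory calls in glucose, only that of psme3 held with each library left out in turn, and it ended without control replicates 1 and 2 and glucose replicate 4 together. Within groups, the median slope on the no-feature share was -0.56 log2 units per 10 percentage points in alpha and -0.51 in constitutive beta genes. It was -0.45 in ATPase and -0.35 in non-ATPase cap genes. Whether this spread between pools bears on the number of calls in each part was not tested.

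Some subunits are encoded by duplicate copies, and the ratios of the copies were compared between groups. A ratio of copies within a library needs no scaling, so the difference in mean log2 ratio was tested with a two-sided exact permutation test for 6 pairs in 3 comparisons, with adjustment over the 18 tests. These pairs were chosen after their values were seen, so the p-values are no independent support, and the ratios with psma6l restate its call. In glucose against control the log2 ratio of psmd4b to psmd4a was higher by 0.18, with 0.10 ± 0.06 in glucose (SD, n = 6) and -0.08 ± 0.07 in control (n = 5, exact permutation adjusted p = 0.0195). All 6 glucose pools (0.005 to 0.19) lay above all 5 control pools (-0.17 to -0.02). The ratio of psmc1a to psmc1b was higher by 0.13 (exact permutation adjusted p = 0.0223), and that of psmd11b to psmd11a by 0.11 (exact permutation adjusted p = 0.0312). The last was lost without control replicate 2, 3, 4 or 6 or glucose replicate 1, 4 or 6 (exact permutation adjusted p = 0.0571 to 0.0686). The ratio of psma6l to psma6a was lower in glucose by a log2 difference of -1.14 and that of psma6l to psma6b by -1.08 (exact permutation adjusted p = 0.0195 for each), while that of psma6b to psma6a differed by -0.06 (exact permutation adjusted p = 0.307).

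In FFA against glucose the log2 ratio of psmd4b to psmd4a differed by -0.12 (exact permutation adjusted p = 0.0223) and that of psmc1a to psmc1b by -0.12 (exact permutation adjusted p = 0.026). The latter was lost without glucose replicate 6 (exact permutation adjusted p = 0.0519). The ratio of psma6l to psma6a was higher in FFA by 0.91 (exact permutation adjusted p = 0.0195), that of psma6l to psma6b by 0.74 (exact permutation adjusted p = 0.0223) and that of psma6b to psma6a by 0.17 (exact permutation adjusted p = 0.026). The last was lost without glucose replicate 1, 4 or 6 (exact permutation adjusted p = 0.0519). The ratio of psmd11b to psmd11a differed by -0.08, within the spread between pools (exact permutation adjusted p = 0.156). In FFA against control none of the 6 ratios passed, with exact permutation adjusted p-values from 0.113 to 0.68. No source used here says how reads that match several copies were counted, so the split between copies is uncertain.

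The 95% intervals of FFA against control give the precision per gene in the reported fit. Over 34 of the 35 tested alpha, constitutive beta, ATPase and non-ATPase cap genes, all but psma6l, the log2 fold changes ran from -0.15 (psmd3) to 0.03 (psmb2). The highest upper 95% bound was 0.25 (psma6b, 1.19-fold) and the lowest lower bound -0.30 (psmd8, 0.815-fold). For psma6l, with its few reads, the value was -0.33 and the lower bound -0.74 (0.599-fold). Each interval covers 1 gene, is not adjusted for the number of genes and does not take in the shifts between settings given above. The labels do not say whether the controls were mock-injected, so the intervals do not bound a response to lipid alone.

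Within groups, the proteasome genes moved with the no-feature share of the library. The slope of each gene on that share was tested in a fit with a mean per group. Of 48 members 38 fell with a rising share and 1 rose, where 30.9% of all genes fell and 26.8% rose. The median slope was -0.44 log2 units per 10 percentage points in the members and -0.10 over all genes. With library size alone the values were -0.27 and 0.07, so the difference between members and all genes was -0.34 with either scaling. All 9 alpha, all 7 constitutive beta and all 7 ATPase genes fell, as did 8 of 12 non-ATPase cap genes and 5 of 6 chaperones. The large scaffold genes did not: psmd1 had a slope of 0.09 (adjusted p = 0.469) and psmd2 of 0.07 (adjusted p = 0.429). The activator psme4b rose by 0.36 per 10 points (adjusted p = 0.0144), which was no longer called without glucose replicate 4. That library had 153 CPM of psme4b, where the other glucose pools had 112 to 118 CPM.

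**Figure D3:**
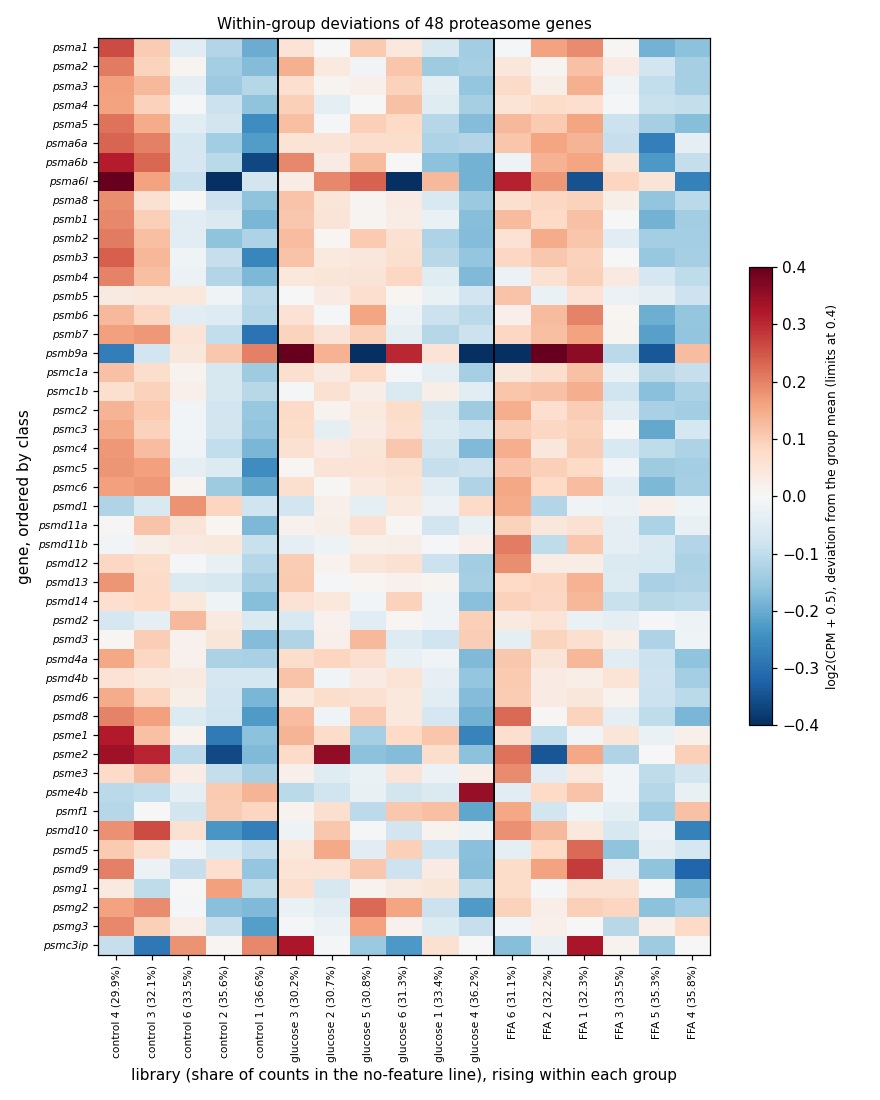
Deviation of log2(CPM + 0.5) from the group mean (color, limits at 0.4) for the 48 tested members (rows, by class) in the 17 libraries (columns), ordered within each group by the no-feature share. In each group most rows turn from red at the left to blue at the right, where control 1 had a mean deviation of -0.17 and control 4, at the other end, 0.15.

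Most subunit genes of the finished complex rose and fell together from pool to pool. Among the 35 alpha, constitutive beta, ATPase and non-ATPase cap genes, 540 of 595 pairs had a positive correlation of within-group deviations over 17 libraries, with a median r of 0.83. Over all 48 members it was 936 of 1128 pairs, with a median of 0.64. These genes share libraries and scaling, so the values are a description. Of all genes 30.9% fell with the no-feature share within groups, and genes that fall with it correlate whatever their role. The correlation among other genes was not computed, so whether these values are particular to the complex was not tested. The mean deviation of the 35 genes ran from -0.17 log2 units in control replicate 1 to 0.15 in control replicate 4, a spread within 1 group that is wider than the median difference of 0.08 between glucose and control. The correlation with the mean of the others of the 35 genes was 0.97 for psmc1a. It was -0.22 for psmd1 and -0.19 for psmd2, which stood apart from the rest of the 35 (next lowest psmd3, 0.38). Tested members outside the 35 ran from -0.42 (psme4b) to 0.85 (psmg2). The part of the no-feature share in the difference between glucose and control was not tested beyond the covariate values above.

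The genes around the proteasome were looked at in lists chosen with earlier results of these data known. Of 16 partners outside the psm names (adaptors, receptors, deubiquitinases and import factors), 1 was called higher and 1 lower in glucose against control (6.25% each). That is near the 5.87% and 5.02% of all genes. In FFA against control 0 were called. In FFA against glucose 2 were called higher (12.5%) and 4 lower (25%), against 7.98% and 9% of all genes. The median over the list was 0.06 in glucose against control and -0.10 in FFA against glucose. The gene kiaa0368, the zebrafish gene for the proteasome adaptor ECM29, rose in glucose by 0.18 ± 0.06 on the log2 scale (adjusted p = 0.0447), a call lost in 10 of 11 fits with 1 library left out. It was at -0.22 ± 0.05 in FFA against glucose (adjusted p = 0.00834). The gene zfand5a, whose mammalian product stimulates the proteasome, ran against the subunits. It was 158 to 220.0 CPM in control, 110.3 to 152 CPM in glucose and 177 to 191 CPM in FFA, without overlap between glucose and either other group. It fell in glucose by 0.43 ± 0.09 on the log2 scale (adjusted p = 0.00401) and was 0.46 ± 0.08 higher in FFA than in glucose (adjusted p = 0.00105). The import factor gene ipo9 was lower in FFA than in glucose, at -0.31 ± 0.06 (adjusted p = 0.00242).

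Of 13 genes of the Nrf1 pathway, which controls proteasome genes in mammals, 0 were called in glucose against control. Of all genes 5.87% were called higher and 5.02% lower there. In FFA against control 1 was called higher (7.69%, against 1.1% of all genes). In FFA against glucose 4 were called higher (30.8%) and 1 lower (7.69%), against 7.98% and 9% of all genes. Gene nfe2l1a, a zebrafish counterpart of the Nrf1 gene, had 24.0 to 32.1 CPM in control, 22.8 to 30.0 CPM in glucose and 33.1 to 57.0 CPM in FFA. Every FFA pool was above every other pool. It was 0.58 ± 0.12 log2 units higher in FFA than in control (adjusted p = 0.0184), a call lost without control replicate 2 or 6 (adjusted p = 0.0516 and 0.0653), and 0.71 ± 0.12 higher than in glucose (adjusted p = 0.000621). The partner genes maff and mafk, for small Maf proteins, were 0.25 ± 0.05 (adjusted p = 0.00473) and 0.64 ± 0.15 (adjusted p = 0.00892) higher in FFA than in glucose. Of the proteasome members 0 of 48 were called higher in FFA against control, near the 1.1% of all genes, and a link to nfe2l1a was not tested.

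Of 22 genes for ubiquitin and its activating and conjugating enzymes, 1 was called higher and 1 lower in glucose against control (4.55% each). That is near the 5.87% and 5.02% of all genes. In FFA against control 0 were called. In FFA against glucose 4 were called higher (18.2%) and 2 lower (9.09%), against 7.98% and 9% of all genes. The polyubiquitin gene ubb was 0.55 ± 0.10 log2 units higher in FFA than in glucose (adjusted p = 0.00165), as was the conjugating enzyme gene cdc34b by 0.19 ± 0.04 (adjusted p = 0.0055). The conjugating enzyme gene ube2s rose in glucose by 0.23 ± 0.04 on the log2 scale (adjusted p = 0.000913) and was at -0.19 ± 0.04 in FFA against glucose (adjusted p = 0.00242). Of 17 tested genes of p97 and of ubiquitin shuttling, sqstm1 alone was called in FFA against control. This gene encodes the receptor p62, which carries ubiquitinated proteins to autophagy. It had 76.0 to 111 CPM in control, 69.9 to 97.8 CPM in glucose and 144 to 465 CPM in FFA, so the FFA pools did not overlap the others. Gene sqstm1 was 1.45 ± 0.25 log2 units higher in FFA than in control (adjusted p = 0.00506) and 1.54 ± 0.24 higher than in glucose (adjusted p = 0.000367). The co-chaperone gene bag3 was 0.49 ± 0.15 higher (adjusted p = 0.0302) and bag6 at -0.25 ± 0.08 (adjusted p = 0.0379) in FFA against glucose, calls that were lost in 5 and 8 of 12 fits with 1 library left out.

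Of 27 cytosolic folding genes, 6 were called higher in glucose against control and 8 higher in FFA against control, with 0 lower in either, where 5.87% and 1.1% of all genes were called higher. There were 5 higher and 4 lower in FFA against glucose (18.5% and 14.8%), against 7.98% and 9% of all genes. The inducible chaperone gene hsp70.3 had 2.62 to 3.68 CPM in control, 4.33 to 7.59 CPM in glucose and 25.6 to 198 CPM in FFA, and was 4.84 ± 0.59 log2 units higher in FFA than in control (adjusted p = 0.000245). Its relative hsp70l was 5.30 ± 0.72 higher (adjusted p = 0.000616), which limma-voom did not call (adjusted p = 0.0814). Near-identical hsp70 copies may share reads. The heat shock factor gene hsf2 rose in glucose by 0.34 ± 0.05 on the log2 scale (adjusted p = 0.000624) and was at -0.50 ± 0.05 in FFA against glucose (adjusted p = 9.54e-06). The FFA pools had higher levels of hsp70.3, hsp70l, sqstm1 and nfe2l1a than the controls. In that comparison 0 of 48 proteasome genes were called, near the 1.1% of all genes called higher and 0.716% lower. A link between these values was not tested.

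**Figure D4:**
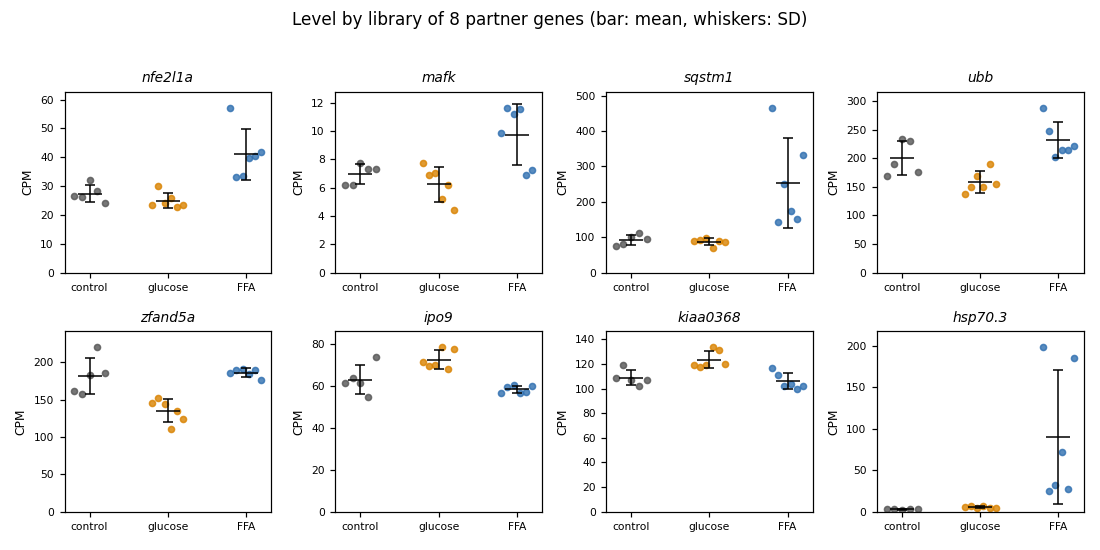
Level in CPM (y axis, from 0) by group (x axis) of 8 genes around the proteasome, 1 point per pool; bars are means and whiskers SD. FFA pools lie above all others for nfe2l1a (33.1 to 57.0 CPM), sqstm1 (144 to 465 CPM) and hsp70.3 (25.6 to 198 CPM), and glucose pools below all others for zfand5a (110.3 to 152 CPM).

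The activator gene psme2 stood beside other genes of antigen presentation and interferon. Of 22 tested genes of that list, 7 were called higher and 1 lower in FFA against glucose, where 7.98% and 9% of all genes were called. In glucose against control it was 1 in each direction (4.55%), near the 5.87% and 5.02% of all genes, and in FFA against control 0. The class I gene mhc1uba was 1.36 ± 0.31 log2 units higher in FFA than in glucose (adjusted p = 0.0058) and fell in glucose by 1.28 ± 0.32 against control (adjusted p = 0.0158). Interferon factor genes irf1b (0.92 ± 0.17, adjusted p = 0.00178) and irf7 (0.64 ± 0.14, adjusted p = 0.00369) were higher in FFA than in glucose. The inducible beta genes that belong with psme2 in mammals had the few reads given above.

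Markers of immune cells, looked at beside these genes, did not all move the same way. In FFA against glucose, 2 of 6 tested lymphocyte and thymus genes were called higher and 1 lower, 2 of 5 neutrophil genes higher, and 2 of 5 macrophage genes higher. Of all genes 7.98% were called higher and 9% lower. Summed levels of the 7 lymphocyte and thymus genes ranged from 14.5 to 19.8 CPM in control, 11.7 to 18.6 CPM in glucose and 17.1 to 20.9 CPM in FFA. Those of the 5 macrophage genes ranged from 107 to 170.5 CPM, 82.3 to 97.1 CPM and 108 to 139 CPM. Those of the 5 neutrophil genes ranged from 633 to 837 CPM, 363 to 469 CPM and 524 to 739.8 CPM, of which cpa5, which is not confined to that cell type, made up 67.4 to 87.1%. The fall of that sum in glucose is that of cpa5: the log2 fold changes of the other 4 neutrophil genes were above 0 in glucose against control, with 1 called higher, and in FFA against control, with 2 called higher. Of the 5 macrophage genes, 4 had log2 fold changes above 0 in FFA against control, and the other was called lower, at -0.75. Gene cd4-1 was at 0 in 2 libraries, and none of the other markers in these 3 lists was at 0 in any. The 4 germ cell genes summed to 5.72 to 7.43 CPM in control, 6.65 to 9.69 CPM in glucose and 5.95 to 7.36 CPM in FFA, with dazl at 0 in 2 libraries, beside the meiotic gene psmc3ip. The part of these cells in the values of psme2, psma6l and psmc3ip was not tested.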

How the data were processed

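The authors deposited 1 file per library (poly(A) RNA of 10 pooled embryos) with read counts per gene in whole numbers, not normalized. The submitters' processing notes name STAR, DESeq2 and, as genome build, danRer7. The sources used here give no versions, counting tool or annotation. Strand-specific libraries were sequenced in 1 run, per the labels' protocols. Lines that name no gene (29.9 to 36.6% no feature, 0.213 to 0.252% ambiguous) were kept out of library sizes and tests.

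The test of the counts was edgeR's quasi-likelihood (edgeR 4.0.16, R 4.3.3) in 1 fit of all 17 libraries with a mean per group, TMM scaling and filterByExpr (minimum count 10), and p-values were adjusted by Benjamini-Hochberg over all 13539 genes. Intervals use 14 residual degrees of freedom, and SE is that of the log2 fold change. A gene is called at an adjusted p under 0.05. DESeq2 1.42.0 and limma 3.58.1 (voom) were alternatives. Ratios of copies used counts plus 0.5. Precision is limited by 5 or 6 pools per group and, for the low members, by their reads. No label says that pools came from separate clutches, so the p-values speak of the spread among pools alone. All 40 replicate pairs differed by more than sampling noise (chi-square per degree of freedom 4.33 to 68.8). The procedure was tested on simulated counts, with genes drawn independently of each other. The planted group differences were larger than most differences called here, so that test does not speak to changes of this size.

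Members, gene lists and alternatives were chosen with earlier results of these data known. Values are given for each member called in any comparison, the 2 members with the smallest p in each class, all inducible beta genes and all activators, with every library for the 10 called members of smallest adjusted p. Other members named, the pairs of copies among them, were chosen after their values were seen. Of the lists around the proteasome, up to 3 called genes are named, smallest adjusted p first. Of 54 names 53 are current symbols in RefSeq. No sequences are shown. The treatment tags of 11 libraries differ from their titles, and grouping by tag was run as an alternative.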

Additional observations from a re-analysis of the deposited data

Results flagged for a closer look

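Over the tested members given with values, 60 groups of pools were looked at, and 2 held a sample far from the others, 3.33%, where chance gives about 1 in 20. Gene psmc3ip stood at 6.57 CPM in FFA replicate 1, and at 4.52 to 5.20 CPM in the other FFA pools. Gene psme4b stood at 153 CPM in glucose replicate 4, and at 112 to 118 CPM in the other glucose pools. That library has the largest no-feature share of its group (36.2%), and the part of that share in the value was not tested.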

How the results depend on the processing

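The number of members called higher in glucose against control was 1 to 5 with 1 library left out (1 without control replicate 1 or glucose replicate 5, 2 without glucose replicate 3 or 6, 3 without control replicate 2 or 3 or glucose replicate 2), where 3.69 to 8.73% of all genes were called higher, and the number called lower stayed at 1. In FFA against control both counts were 0 in each such fit. In FFA against glucose 1 to 2 were called higher (1 without glucose replicate 6) and 8 to 12 lower. With the no-feature share, 34 to 39 members fell and 0 to 1 rose (0 without glucose replicate 4). Without control replicates 1 and 2 and glucose replicate 4 together, the counts were 0 higher and 2 lower in glucose against control, 17 lower in FFA against glucose, and 27 falling and 0 rising with the no-feature share. No FFA pool was left out there, though FFA replicates 4 and 5 had high no-feature shares too. With the no-feature share as a covariate, 2 were lower in glucose against control, 1 lower in FFA against control and 15 lower in FFA against glucose. With library size alone, 3 rose with the no-feature share and 27 fell. DESeq2 called 13 lower in FFA against glucose, and limma-voom, RLE scaling, no count filter and a fit of 2 groups moved none of these counts by over 1.5 times. In the reported fit 9% of all genes were called lower in FFA against glucose, and 30.9% fell with the no-feature share. Counts given here without a share of all genes show how the numbers moved, and are not set against the background of their fit. Without those 3 libraries the ratios of copies called in glucose against control, and 3 of those called in FFA against glucose (psma6b to psma6a, psma6l to psma6b and psmd4b to psmd4a), had an exact permutation adjusted p of 0.0643. For glucose against control this p is set by the design, since the unadjusted p is the smallest that 3 against 5 pools allow, and the log2 differences were as large as before or larger: -1.19 for psma6l to psma6a, -1.11 for psma6l to psma6b, 0.21 for psmd4b to psmd4a, 0.14 for psmc1a to psmc1b and 0.14 for psmd11b to psmd11a. In glucose against control, the call of psmd4b ended in a fit of only the 2 groups (adjusted p = 0.0516), as did that of mhc1uba (adjusted p = 0.0527), and that of psmd11b with library size alone (adjusted p = 0.0641). The call of nfe2l1a in FFA against control ended in a fit of 2 groups (adjusted p = 0.064) and without the 3 libraries (adjusted p = 0.0567). The causes were not tested. Depth limits the inducible beta genes, with a few reads per library.

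Most libraries with the same replicate number did not deviate together. Of 16 pairs 4 had a correlation over 0.1 (-0.76 to 0.518), and 2 of 17 libraries correlated best with their own number. The labels do not say whether a number marks a shared clutch or day. Since libraries also deviate with the no-feature share, these correlations cannot settle whether the numbers pair the samples. With the replicate number as a block, 2 members were called higher in glucose against control and 1 lower (3.48% and 3.24% of all genes), 1 higher and 8 lower in FFA against glucose (5.95% and 6.09%), and 37 fell and 0 rose with the no-feature share. With that block, the calls of psmd9, psmd11b and psmd12 in glucose against control ended (adjusted p = 0.0604 to 0.0824). Those of psma6l and psmc1a in FFA against glucose ended too (adjusted p = 0.0705 and 0.0679).

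With groups taken from the treatment tags, 0 members were called higher and 0 lower in glucose against control, and 3 higher and 0 lower in FFA against glucose. The shares of all genes called in that fit are not given here, so these counts are not set against a background. The tags exchange the names of most glucose and FFA pools, so turned signs in FFA against glucose follow from that exchange. The calls in FFA against control then ended for hsp70.3 (3.39, adjusted p = 0.142), hsp70l (3.43, adjusted p = 0.202), sqstm1 (0.70, adjusted p = 0.409) and nfe2l1a (0.20, adjusted p = 0.601), as did that of psma6l in glucose (-0.14, adjusted p = 0.985), each value a log2 fold change. In glucose against control the log2 fold changes then turned to -0.067 for psmd11b, -0.057 for psmd12, -0.093 for psmd4b, -0.22 for psmd9, -0.063 for psme3, 0.22 for mhc1uba, -0.22 for hsf2, 0.086 for zfand5a, -0.093 for kiaa0368 and -0.0049 for ube2s. In FFA against glucose they turned to -0.75 for psma6l, 0.20 for psmb5, 0.22 for psmc1a, 0.22 for psmd1, 0.21 for psmd11b, 0.24 for psmd12, 0.17 for psmd2, 0.24 for psmd4b, 0.47 for psmd9, -0.42 for psme2 and 0.25 for psme3. Outside the members they turned to -0.78 for irf1b, -0.47 for irf7, -1.17 for mhc1uba, -0.30 for nfe2l1a, -0.24 for maff, -0.56 for mafk, 0.43 for hsf2, -0.84 for hsp70.3, -1.37 for hsp70l, -0.49 for sqstm1, -0.32 for bag3, 0.22 for bag6, -0.39 for zfand5a, 0.25 for ipo9, 0.24 for kiaa0368, 0.18 for ube2s, -0.27 for ubb and -0.17 for cdc34b. The log2 ratios turned to -0.13 for psma6b to psma6a, -1.01 for psma6l to psma6a, -0.89 for psma6l to psma6b, 0.10 for psmc1a to psmc1b and 0.066 for psmd4b to psmd4a in FFA against glucose, and to 0.025 for psma6l to psma6a and -0.0092 for psmd11b to psmd11a in glucose against control.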
